A study of Glycine max with 42 samples.

Results

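Leaves of soybean (Glycine max) of line T295H were compared by RNA sequencing at flowering and 7 days later. The earlier group, called initial, held 3 libraries of trifoliate leaves taken at day 28 after planting, at R2, a stage of full flowering. The later group held 3 control libraries of day 35. These 6 libraries were chosen by their labels, out of 42 in the series and 15 of T295H, and 29370 of 37403 listed genes had the mean normalised count of at least 10 over the 15 T295H columns that testing required. The lowest mean tested was 10.0017 and the highest not tested 9.99813. The series follows leaves until senescence begins, in plants whose seed sink was limited by pod removal (Williams 82) or by sterility (T295H). The sample group of the initial libraries is given as a time point only, without control or sterile, while their titles begin with SterileAP1. Titles of the control libraries also begin with the word Sterile (Sterile_Control2), so that whether the word marks the plants or the experiment is not said. If the initial plants were sterile ones, time and kind of plant differ together in this comparison and cannot be told apart. All groups used here are T295H unless Williams 82 is named. The sources used here do not say how the sterile plants and their controls are related, which gene lies behind the sterility, or whether plants were pooled.

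At flowering a soybean leaf is a source organ: it fixes carbon, holds much of the nitrogen of the plant in its photosynthetic proteins, and exports sucrose and amino acids. Pods that start to grow after flowering become the main sink for that export. Leaf transcripts for growth and for photosynthesis are known to decline with leaf age, and storage, defence and remobilisation genes to change when sinks are added or removed. The comparison asks what had changed in control leaves after 7 days of this transition. Nothing in the files or the reference table pairs the gene IDs with names, so genes are given by ID and no role is assigned to them. For the same reason, the label of leaf could not be checked against leaf markers, nor the libraries against markers of other tissues. In whole leaves, fewer cells of a type and less RNA per cell cannot be told apart.

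Initial replicate 3 stood apart from the other initial libraries. On log2(normalised count + 1) over the 29370 genes, its Pearson correlation with initial replicates 1 and 2 was 0.874 and 0.856. Its correlation with the 3 control libraries of day 35 was 0.920 to 0.929. Initial replicates 1 and 2 correlated at 0.907 with each other and at 0.808 to 0.834 with the day 35 controls, which correlated at 0.961 to 0.970 among themselves. By this measure the library labelled initial replicate 3 was nearer to the later group than to its own. Initial replicate 1 correlated at 0.875 to 0.911 and initial replicate 3 at 0.919 to 0.924 with the sterile libraries of day 35. Its total of 9992702 counts and the 9.20% of counts in its 10 most abundant genes were close to those of initial replicate 1, with 9271355 counts and 9.55%.

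Initial replicate 2 stood apart in another way. It was the shallowest of the 15 libraries at 5471456 counts, against 8538194 to 11877733 in the others, and its 10 most abundant genes held 41.3% of its counts (95% exact Clopper-Pearson interval 41.3 to 41.4, covering counting error only). The same 10 genes held 4.63% and 5.93% of counts in initial replicates 1 and 3 and 3.21% to 3.96% in the day 35 controls. All 10 were higher in this library than in any other of the 15, at 6.44 to 37.0 times the mean of the other initial libraries, and 6 of them carry IDs of chromosome 13. The most abundant, Glyma.08G269900, had 199863, 2610830 and 237087 normalised counts in initial replicates 1, 2 and 3 and 99519, 107532 and 117987 in the day 35 controls. Every initial library was above every control library, but the change did not pass the test (log2 change -2.20, SE 0.78, limma adjusted p 0.079; -1.01 and adjusted p 0.23 without initial replicate 2). It was called lower without initial replicate 3 (limma adjusted p 0.022) and with edgeR on recovered counts (adjusted p 0.019). In Williams 82 its log2 change was -1.11 (SE 0.95, limma adjusted p 0.52). Of the 10 genes, 2 passed the test with all libraries and 1 without initial replicate 2. Numbers of calls, the counts of genes shared with Williams 82 and the day 63 shares are therefore given with and without initial replicates 2 and 3. For the named genes only some omissions are given. Shares of counts, chromosomes, neighbours and the direction of change in Williams 82 rest on all libraries.

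Counts were spread over more genes at day 35. In the initial libraries, 50% of all counts lay in 506, 35 and 562 genes in replicates 1, 2 and 3. In the day 35 controls, 952, 971 and 964 genes were needed. The groups did not overlap, with or without initial replicate 2, and the means were 368 ± 289 and 962 ± 9.61 (SD, n = 3). An exact two-sided permutation test gave p = 0.1, the smallest that 3 libraries against 3 allow. Sterile libraries of day 35 needed 856, 913 and 918 genes, and those of day 63 needed 1196 to 1306 genes in controls and 1130 to 1415 in sterile leaves.

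**Figure D1:**
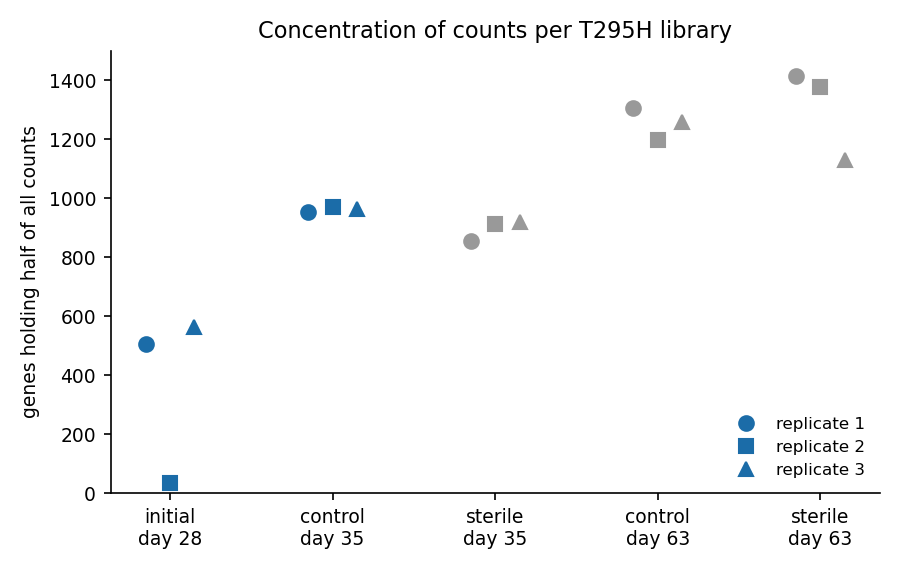
Number of genes that together hold 50% of all counts (y axis) in each of the 15 T295H libraries, by group (x axis), with 1 point per library and a symbol per replicate; blue marks the compared groups. The initial libraries lie between 35 and 562 genes, below the day 35 controls at 952 to 971.

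Between initial leaves and day 35 controls, 1589 genes rose (5.41% of those tested) and 1818 fell (6.19%), 3407 in all or 11.6%. At a change of at least 4-fold, read from the log2 change of the test, there were 470 risen genes (1.6%) and 621 fallen ones (2.11%), and at 16-fold 66 and 132. The median change was 1.37 among the risen and -1.49 among the fallen genes, on the log2 scale. With genes at 0 in every library of the lower group set at their bound, against a floor of 6 counts per library, the medians were 1.33 and -1.49. At or under that floor in every initial library were 120 of the risen genes, 33 of them without a count, and in every control 141 of the fallen genes, 18 of them without a count. The smallest change called was 0.40 in size. With all libraries, more genes fell than rose among the most abundant genes and among the least abundant ones. Of 186 genes with a mean of at least 5000, 24 rose and 50 fell, and 39.8% were called. Of 10643 genes with means from 100 up to 500, 703 rose and 626 fell. Among 9735 genes with means from 10 up to 50, 303 rose and 512 fell, and 8.37% were called. Without initial replicate 3 the numbers were 44 and 60 at means of at least 5000 and 838 and 1020 at means under 50, and without initial replicate 2 they were 8 and 35, and 166 and 223. Without initial replicate 1, 6 genes rose and 33 fell at means of at least 5000. At means under 50 the balance then turned, with 212 risen and 182 fallen genes.

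Risen genes held 2.11%, 1.46% and 4.72% of counts in initial replicates 1, 2 and 3 and 9.06%, 9.52% and 9.41% in the day 35 controls. Fallen genes held 31.3%, 20.8% and 22.7% of counts in the initial libraries and 13.9%, 13.7% and 13.8% at day 35. These shares come from the contrast that chose the genes and are given as a description. The libraries of the groups did not overlap for 1479 of the risen and 1769 of the fallen genes, 3248 in all or 11.1% of those tested. Without regard to the test, 28.5% of genes showed no overlap.

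The balance of risen and fallen genes depended on the scaling. With TMM scaling, 1972 genes were higher and 1522 lower (11.9% called). Scaling by the total without each library's 10 most abundant genes moved the median change of all genes by 0.30 on the log2 scale and gave 4543 higher and 1138 lower genes (19.3% called). Relative to that shift, 1507 were higher and 1834 lower. DESeq2 on recovered counts gave 1619 higher and 2836 lower genes. A fit of only the 6 compared libraries called 789 genes, 215 higher and 574 lower (2.69%).

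The number of calls also depended on single libraries. Without initial replicate 3, 3580 genes were higher (12.2%) and 3391 lower (11.5%), 6971 in all or 23.7%. These included 3293 of the 3407 genes called with all libraries, in the same direction. Without initial replicate 2, 796 were higher (2.71%) and 910 lower (3.1%), 1706 in all or 5.81%. Calls numbered 1582 without initial replicate 1 and 1629, 1637 and 1385 without control replicates 1, 2 and 3. Genes changed at least 4-fold numbered 1153 higher and 1094 lower without initial replicate 3, and 252 and 347 without initial replicate 2. The median changes of the called genes were 1.42 and -1.44 without initial replicate 3 and 1.52 and -1.56 without initial replicate 2. A core of 1012 genes (3.45%), 447 higher and 565 lower, was called with all libraries and without each of the 6 in turn.

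**Figure D2:**
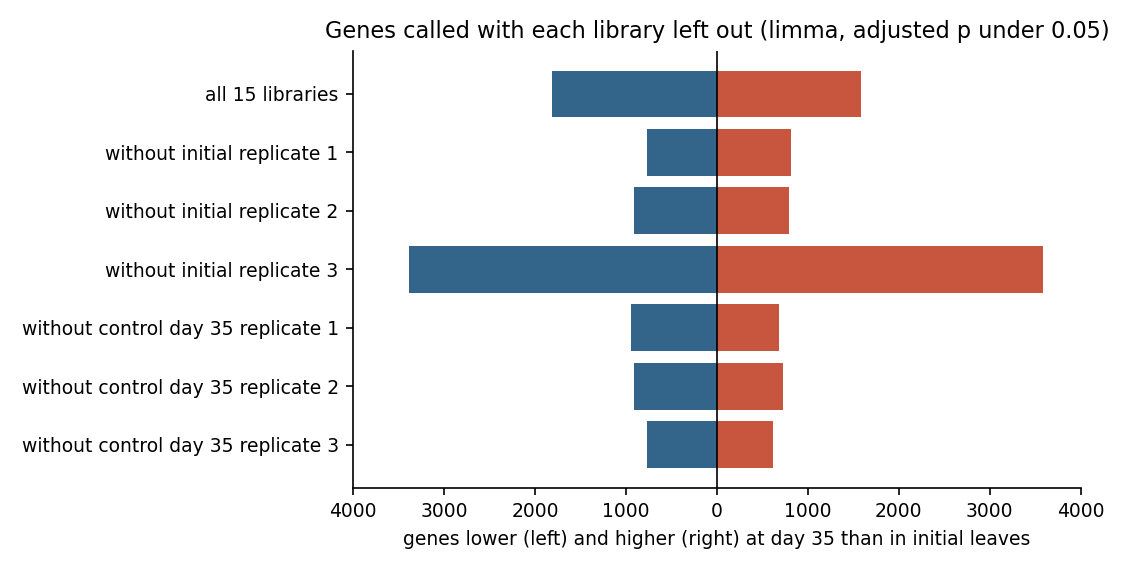
Numbers of genes called lower (bars to the left) and higher (bars to the right) in day 35 controls than in initial leaves, by limma with an adjusted p under 0.05, with all 15 libraries and with each compared library left out (y axis). Leaving out initial replicate 3 gives 3391 lower and 3580 higher genes, the longest bars; every other omission gives fewer calls than the 1818 and 1589 of all libraries.

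The place of each library was then measured on genes called without it. The log2 distance between the means of the other libraries of both groups was set to 1, with 0 at the library's own group. For the 6971 genes called without initial replicate 3, this library lay at a median of 0.69 of the way to the day 35 controls (quartiles 0.43 and 0.96). It was past the midpoint for 4809 of them, or 69.0%. Its median position was 0.76 for risen and 0.62 for fallen genes. Initial replicates 1 and 2 lay at medians of -0.11 and 0.00034, and were past the midpoint for 17.0% of 1582 and 15.3% of 1706 genes. For these libraries the genes were called, and 0 was set, with initial replicate 3 in the group. Their positions are therefore not on the same scale as that of initial replicate 3. The 3 controls lay at 0.049 to 0.081 of the way to the initial group, past the midpoint for 4.64% to 6.20%. The median SD between libraries over all tested genes was 0.43 on the log2 scale in the initial group, 0.29 without replicate 3 and 0.34 without replicate 2, against 0.23 in the day 35 controls.

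**Figure D3:**
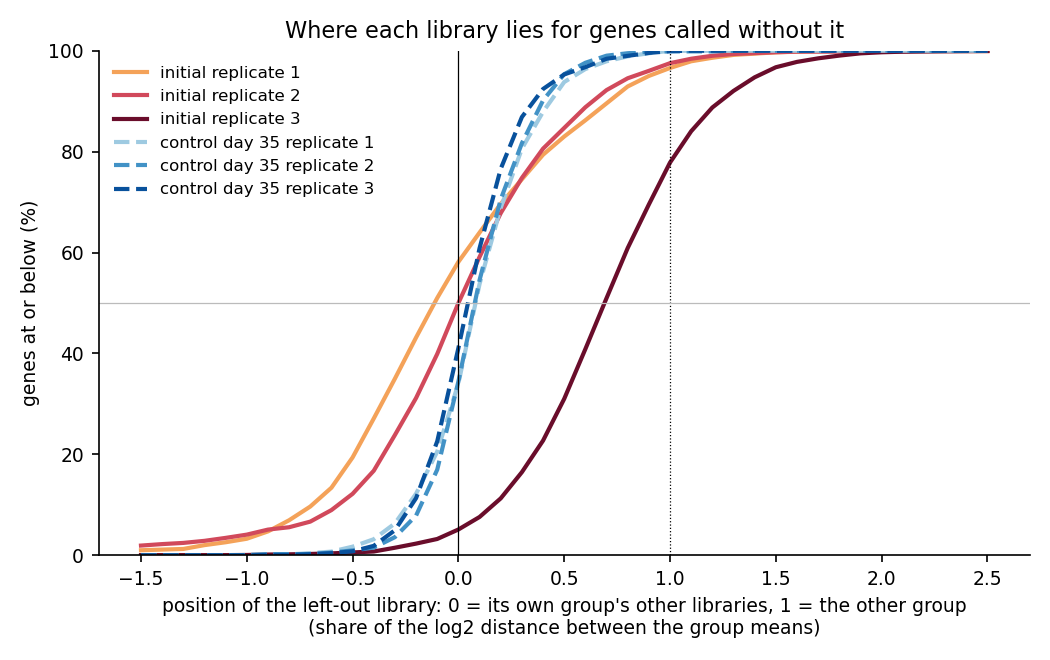
Cumulative share of genes (y axis, percent) by the position of a left-out library (x axis, 0 at its own group's other libraries and 1 at the other group, as a share of the log2 distance), for genes called without that library. The curve of initial replicate 3 crosses 50% at 0.69, those of the other 5 libraries between -0.11 and 0.081. The genes and the 0 differ between curves.

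The risen genes described next were chosen for the largest change and are extremes. Of the 1589 risen genes, 8 changed at least 64-fold, and the median log2 change was 1.37. They also show the place of initial replicate 3. Among the genes so chosen, Glyma.11G093100 had 0, 6.44 and 32.3 normalised counts in initial replicates 1, 2 and 3. It had 1327, 1455 and 1792 in the day 35 controls. It was near the counting floor in initial leaves, with 32 counts in all against a floor of 6 per library, and high in every control. The means of 12.9 ± 17.1 and 1525 ± 240.0 (SD, n = 3) differ 118-fold (95% counting interval 72.6 to 207), with a log2 change of 7.91, SE 0.97 and limma adjusted p 0.00055. Without initial replicate 3 only 2 counts remained in initial leaves, so that the ratio of 474 (84.9 to 18713) is imprecise; that without initial replicate 1 was 78.8. In sterile leaves of day 35 it stood at 82.4, 110 and 10.97, below every control of that day. It went on to 16055 ± 1414 in controls and 4211 ± 2213 in sterile leaves of day 63.

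Glyma.18G052600 had 2.49, 25.8 and 2500 normalised counts in initial replicates 1, 2 and 3 and 9736, 13259 and 14840 in the day 35 controls. Initial replicates 1 and 2 were low, while initial replicate 3 came to a level between them and the controls. The means of 843 ± 1435 and 12611 ± 2613 (SD, n = 3) differ 14.96-fold, with a log2 change of 7.66, SE 1.54 and limma adjusted p 0.0071. The log2 change compares means of log values, while initial replicate 3 makes up most of the initial mean, so these measures differ. With edgeR on recovered counts the log2 change was 3.92. The mean of the initial group was 14.1 without replicate 3, and the ratio then 893 (95% counting interval 383 to 2751). It was 9.99 and 10.1 without initial replicates 1 and 2. The call was lost with edgeR on recovered counts (adjusted p 0.078) and on halved counts (0.059), and in the fit of only the compared libraries (0.1). Sterile leaves of day 35 had 4108, 5567 and 836, and the day 63 levels were 2260 ± 910 in controls and 18548 ± 8341 in sterile leaves. In controls it was thus highest at day 35 among the 3 days sampled, although the fall from day 35 to day 63 did not pass the test (log2 change -2.56, SE 1.54, limma adjusted p 0.17).

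Among the fallen genes, Glyma.15G238600 had 12896, 10800 and 2257 normalised counts in initial replicates 1, 2 and 3. It had 28.8, 22.8 and 0.742 in the day 35 controls. All initial libraries were far above all controls, and initial replicate 3 was the lowest of them. The means of 8651 ± 5636 and 17.4 ± 14.8 (SD, n = 3) differ 496-fold (95% counting interval 343 to 747), with a log2 change of -9.31, SE 1.28 and limma adjusted p 0.0012. The ratio ranged from 336 without control replicate 3 to 735 without control replicate 1. Sterile leaves of day 35 had 63.6, 91.0 and 3326, so that sterile replicate 3 alone lay within the range of the initial leaves. At day 63 the gene stood at 2.85 ± 2.13 in controls and 19.0 ± 10.2 in sterile leaves.

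Glyma.11G098500 had 7694, 6651 and 198 normalised counts in initial replicates 1, 2 and 3 and 4.11, 1.75 and 2.97 in the day 35 controls. It was close to absent at day 35, at 10 counts in all, and again lowest in initial replicate 3 among the initial libraries. The means of 4847 ± 4060 and 2.94 ± 1.18 (SD, n = 3) differ 1647-fold (95% counting interval 705 to 5075), with a log2 change of -9.15, SE 1.35 and limma adjusted p 0.0017. Sterile leaves of day 35 had 60.9, 36.0 and 1347. The tested gene just before it in ID order also fell, with 24525, 20673 and 598 in initial leaves and 26.7, 12.3 and 8.91 at day 35 (log2 change -8.77, SE 1.25, limma adjusted p 0.0013), and was chosen for description after its values were seen. Reads of near-identical neighbouring copies could be split between them, and nothing in the files says whether these genes are such copies. The next gene on the other side had 39.8, 45.1 and 55.9 in initial leaves and 57.5, 47.3 and 43.0 at day 35, and was not called (limma adjusted p 0.9).

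**Figure D4:**
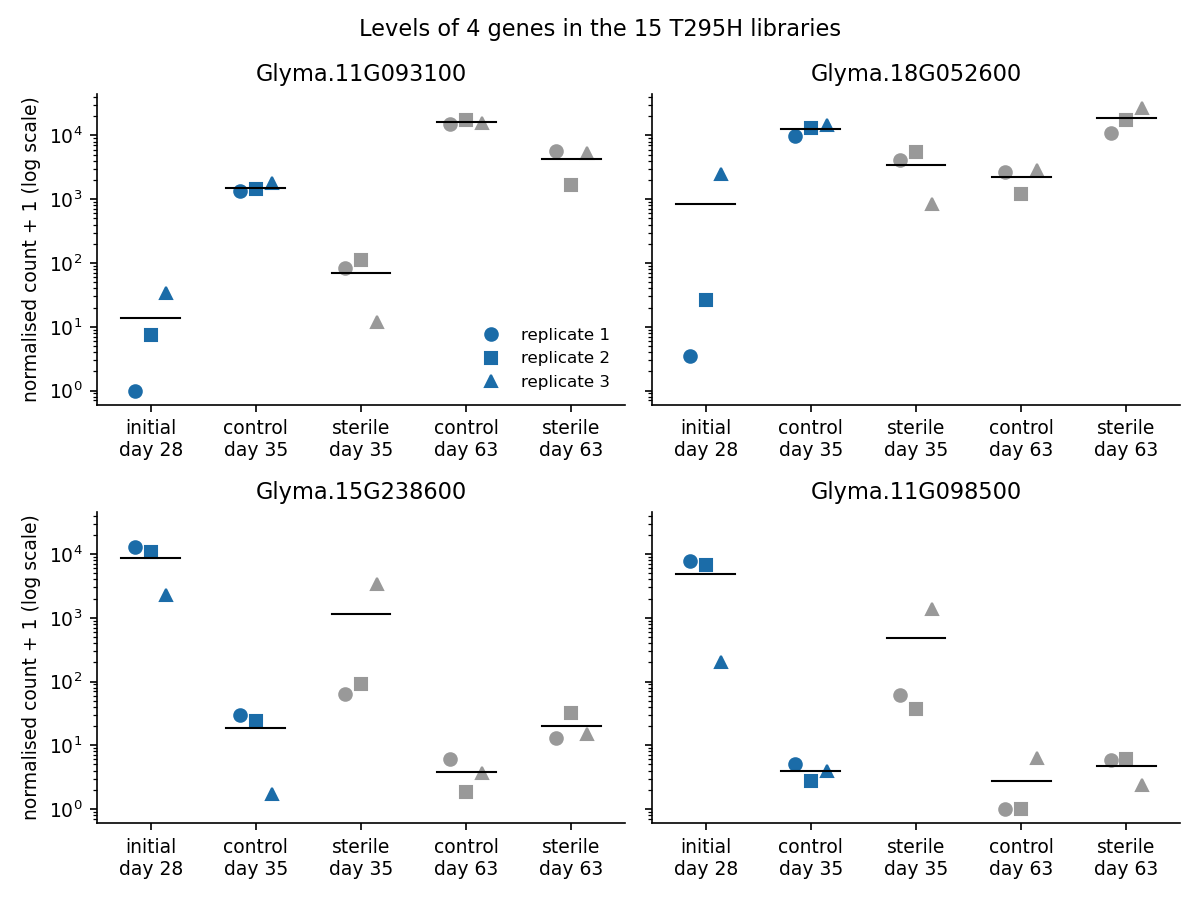
Normalised count + 1 (y axis, log scale) of the 2 risen and 2 fallen genes with the largest change, in all 15 T295H libraries by group (x axis); points are libraries with a symbol per replicate, lines the group means, and blue marks the compared groups. In each panel the triangle of initial replicate 3 is the initial library nearest to the day 35 controls.

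The sterile libraries of day 35 share the initial libraries with this comparison, so their own result is only set beside it. They had 707 genes higher (2.41%) and 781 lower (2.66%) than initial leaves, 1488 in all or 5.07%. That count was 4497 without initial replicate 3 and 308 without sterile replicate 1. The log2 changes in sterile and control leaves were 2.93 and 7.91 for Glyma.11G093100, 5.44 and 7.66 for Glyma.18G052600, -4.65 and -9.31 for Glyma.15G238600, and -3.90 and -9.15 for Glyma.11G098500. Sterile minus control differences of day 35 were -4.98, -2.22, 4.66 and 5.25 in the same order, and none of the 4 passed the test (limma adjusted p 0.059, 0.58, 0.14 and 0.12). Sterile replicate 3 was the sterile library nearest to initial replicates 1 and 2 for all 4 genes.

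Changed genes were found on all 20 chromosomes, read from the number in the ID. Shares called ran from 10.3% on chromosome 1 to 13.5% on chromosome 16, around the 11.6% of all genes. Chromosome 16 had the highest share of risen genes, 7.15%, and chromosome 1 the lowest, 4.24%. Most called genes had no neighbour in ID order called in the same direction: 15.9% of risen genes had a risen gene next to them, against 10.5% of all tested genes, and 15.5% of fallen genes had a fallen one, against 11.9%. The longest run of risen genes held 6 on chromosome 2, with initial means of 53.9 to 649, day 35 means of 388 to 2123 and log2 changes of 1.19 to 3.29. The longest run of fallen genes held 5 on chromosome 9, with initial means of 127 to 916, day 35 means of 34.4 to 293 and log2 changes of -2.35 to -0.55. Neighbouring copies that share reads could not be recognised among them, since the files hold neither names nor sequences.

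Williams 82, the other line, has a like interval and shares no library with T295H: its initial libraries of R2 were taken at day 38 and its first controls at day 45, also 7 days later. There, 873 genes rose (2.99%) and 817 fell (2.8%), 1690 in all or 5.79% of 29208 tested. In this line too the count depended on a single initial library, at 4471 without its replicate 2 and 397 without its replicate 1. Both lines had 27751 tested genes in common, and 240 of these rose in each, which is 15.6% of the 1538 risen in T295H and 29.0% of the 829 risen in Williams 82. Another 262 fell in each, 15.6% of 1675 and 33.5% of 783. Opposite calls were made for 9 genes, 5 higher and 4 lower in T295H. Over all common genes, 2.99% rose and 2.82% fell in Williams 82.

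The direction of the Williams 82 change was then read for all genes called in T295H, passing there or not. The median Williams 82 change was 0.59 for genes risen in T295H, -0.67 for fallen ones and -0.018 for all common genes, on the log2 scale. A positive change in Williams 82 was seen for 80.1% of the risen genes and 48.8% of all, and a negative one for 85.7% of the fallen genes. Among genes not called in Williams 82, 992 of 1293 risen genes (76.7%) had a positive value there, with a median of 0.43, and 1174 of 1409 fallen genes (83.3%) a negative one, with a median of -0.56. For the core of genes called without each library in turn, 961 were tested in both lines. Of its 436 risen genes, 97 rose and 2 fell in Williams 82 (22.2% rose). Of its 525 fallen genes, 103 fell and 0 rose (19.6% fell). The medians in Williams 82 were 0.85 and -0.82, against 1.67 and -1.73 in T295H. Across genes, which are not independent replicates, the changes of the lines had a Pearson's r of 0.525 and a Spearman's rho of 0.412. Pearson's r was 0.548 without initial replicate 3, 0.494 without initial replicate 2 and 0.451 without initial replicate 1. Without initial replicate 3, 398 genes rose and 419 fell in both lines, and without initial replicate 2, 127 and 136. As shares of the T295H calls these were 11.5% of 3465 risen and 13.4% of 3119 fallen genes without initial replicate 3. Without initial replicate 2 they were 16.5% of 769 and 16.1% of 847.

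**Figure D5:**
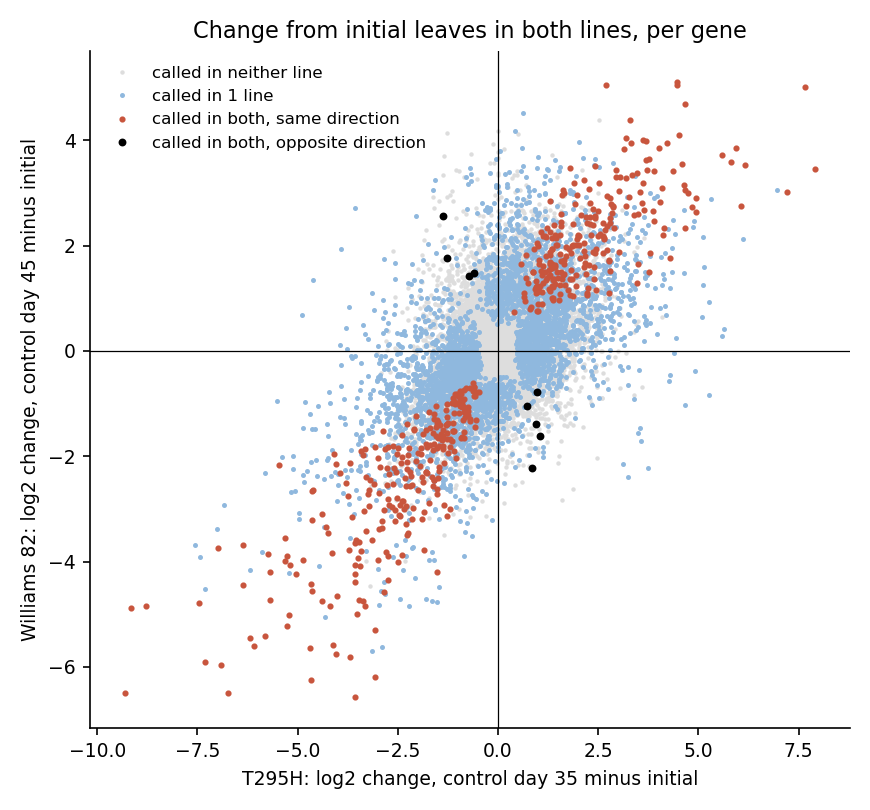
Log2 change of each of 27751 genes in T295H (x axis, control day 35 minus initial) and in Williams 82 (y axis, control day 45 minus initial), coloured by whether it was called in neither line, 1 line or both. The 502 genes called in the same direction in both lie, by definition, in the upper right and lower left quadrants, and 9 black points are called in opposite directions.

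The genes with the largest smaller change of both lines were Glyma.18G052600 and Glyma.15G196700 among the risen and Glyma.15G238600 and Glyma.12G062700 among the fallen. In Williams 82, Glyma.18G052600 had 0, 2.60 and 5.96 normalised counts in initial and 86.6, 102 and 93.7 in day 45 leaves (log2 change 5.02, SE 1.05, limma adjusted p 0.008), without overlap, and the call was lost without Williams 82 initial replicate 1 (adjusted p 0.065) and when only the compared libraries were fitted (0.067). Glyma.15G238600 fell there from 59778, 33539 and 56497 to 528, 400.2 and 729 (log2 change -6.49, SE 0.79, limma adjusted p 8.9e-05). Its fall was thus large in every library of both lines.

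Glyma.15G196700 had 0, 0 and 43.0 normalised counts in T295H initial leaves and 67.8, 92.9 and 78.7 in day 35 controls (log2 change 4.50, SE 1.11, limma adjusted p 0.018). All of its initial counts lay in initial replicate 3, without which it was at least 5.96-fold higher at day 35, against a floor of 6 counts per library. This call was lost under 9 alternatives, among them edgeR, DESeq2 and the omission of initial replicate 1 or 2 or of any control. In Williams 82 it had 0, 2.60 and 11.9 in initial and 61.0, 52.0 and 71.4 in day 45 leaves (log2 change 4.11, SE 0.90, limma adjusted p 0.011), a call lost without Williams 82 initial replicate 1 (0.091) and when only the compared libraries were fitted (0.15). Glyma.12G062700 had 3745, 3818 and 19.4 in T295H initial leaves and 8.22, 7.01 and 0 in day 35 controls (log2 change -7.30, SE 1.62, limma adjusted p 0.011). Initial replicate 3 was close to the controls for this gene, and the call was lost without initial replicate 1 or 2 (adjusted p 0.055 for both), without control replicate 3 (0.058) and in the fit of only the compared libraries (0.1). In Williams 82 it had 4104, 13.002 and 504 in initial and 1.97, 3.59 and 8.93 in day 45 leaves (log2 change -5.90, SE 1.28, limma adjusted p 0.0098). Its libraries there ranged widely in the initial group, and the call was lost without Williams 82 initial replicate 1 (limma adjusted p 0.089) or control replicate 1 (0.053), and when only the compared libraries were fitted (0.25).

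Genes of the day 35 comparison were followed at day 63 in sterile leaves against controls of that day. These day 63 libraries are in neither compared group, but they entered the filter and the shared estimate of spread behind the day 35 calls. In that contrast 50.3% of all genes were called, 26.6% higher and 23.6% lower in sterile leaves. Of the 1818 genes that fell by day 35, 852 (46.9%) were higher and 308 (16.9%) lower in sterile leaves, with a median log2 difference of 0.86, against 0.020 for all genes. Of the 1589 that rose, 485 (30.5%) were higher and 400 (25.2%) lower, with a median of 0.0023, which is near the background. For the fallen genes the share that was higher ran from 43.6% without initial replicate 3 to 49.6% without control replicate 1 of day 35. For the risen genes it ran from 24.3% without initial replicate 3 to 35.9% without control replicate 2. The balance of the risen genes turned with 2 omissions: without initial replicate 3, 24.3% were higher and 27.8% lower (median -0.14), and without control replicate 1, 28.0% and 29.9% (median -0.22). Without initial replicate 2, 32.3% of the risen genes were higher and 25.8% lower, against 49.6% and 16.9% for the fallen ones. When each contrast was fitted on its own libraries, 289 of 574 fallen genes were higher in sterile leaves and 53 of 215 risen genes lower. Another 154 genes were fallen and lower or risen and higher in that fit. No share over all genes is given for it, so these counts cannot be set against a background. The median of the mean normalised count was 125 for fallen, 156 for risen and 91.1 for all tested genes, and the part of abundance in these shares was not tested.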

How the data were processed

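For each line the authors deposited 1 table of normalised counts, a signal that, by its values, is the count of a gene over a size factor of its library. Bowtie2 and DESeq2 were used, per the submitters' processing notes, which give no role for either. Genome build, annotation, counter and strand: not given in the sources used here. Within 0.01, all T295H values were whole multiples of 1 step per library, and these recovered counts served the count tests; 1 Williams 82 column entered none. Of recovered counts above 0, 98.8% to 99.1% per T295H library were even, so floors (3 pairs, 6 counts per library) and intervals were computed on pairs and cover counting error only.

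The main test was limma 3.58.1 in R 4.3.3 (trend, two-sided, Benjamini-Hochberg, adjusted p under 0.05) on log2(normalised count + 1), with 1 mean per group and all libraries of a table in 1 fit. The added 1 draws changes of low genes toward 0, but means of log values are compared, so a change can also come out larger. In T295H, Glyma.15G196700 had 4.50 against 2.24 with edgeR on recovered counts, and Glyma.12G062700 had -7.30 against -8.96. edgeR 4.0.16 and DESeq2 1.42.0 were alternatives. Nothing in the labels ties a library to a plant of its own, and p-values therefore reflect the spread between libraries, which may be technical. That spread was pooled over all groups of a table. In T295H the median SD was 0.43 on the log2 scale in the initial group and 0.23 to 0.30 in the other groups. Pooling can therefore make the p-values of this comparison too small. No replicate pair within the initial or the day 35 control group agreed within sampling noise (lowest chi-square per degree of freedom 3.09). Pairs of the other groups were not compared in this way. Of 39557 IDs, 0 matched the 59048 genes of the RefSeq table used (assembly Glycine_max_v4.0), so lists by product name were not applied. By rule, genes are named where they had the largest log2 change among called genes without overlap whose higher group averaged 50 or more (2 risen, 2 fallen), where the smaller of their changes in both lines was largest (2 risen, 2 fallen), or as the most abundant gene of initial replicate 2. The comparison and lists were chosen with earlier results of these data known.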

Additional observations from a re-analysis of the deposited data

Results flagged for a closer look

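Between initial leaves and the first later controls, 7 genes were called in opposite directions in T295H and Williams 82 with no overlap between the libraries of either line, 4 of them higher and 3 lower in T295H. The lines had 27751 tested genes in common, of which 502 were called in the same direction in both and 9 in opposite ones. Without regard to the test, 28.5% of the genes tested in T295H showed no overlap. How many opposite calls would arise by error alone was not tested. The lines were normalised in separate tables, so the difference between them was not tested for the 7 genes.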

How the results depend on the processing

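The count of genes called between initial leaves and day 35 controls was 3407. It was 789 when only the compared libraries were fitted, 5681 with scaling without the 10 most abundant genes, 7108 with TMM scaling and initial replicate 3 left out (chosen after seeing the data), and 1385 to 6971 without 1 library. With the replicate number as a block it was 3282, 1534 higher and 1748 lower. The deviations of same-numbered initial and control libraries correlated at 0.050, -0.017 and 0.11 in replicates 1, 2 and 3. The highest values with another number were -0.022, 0.11 and 0.043, so replicate 2 alone did not correlate best with its own. From values this weak, whether replicate numbers pair the samples cannot be decided. EdgeR on recovered and on halved counts, DESeq2, a pseudocount of 5 and other filters stayed within 1.5 times, at 3185, 3328, 4455, 3875, 2683 (mean of at least 50) and 3825 (no filter). For sterile leaves of day 35 against initial ones, 1488 became 33 when only the compared libraries were fitted, 3538 with scaling without the 10 most abundant genes, 2511 with DESeq2 and 308 to 4497 without 1 library. For Williams 82, 1690 became 47 when only the compared libraries were fitted and 397 to 4471 without 1 library. The 502 genes changed the same way in both lines became 15 when only the compared libraries were fitted, 869 with DESeq2, 489 with the block, 232 to 817 without 1 T295H library and 145 to 1050 without 1 Williams 82 library (the last chosen after seeing the data). Of the genes called at day 35, 1252 had the opposite difference at day 63 (852 fallen and higher, 400 risen and lower). These were 46.9% of the fallen and 25.2% of the risen genes, against 26.6% higher and 23.6% lower over all genes. Another 793 differed in the same direction (485 risen and higher, 308 fallen and lower), which among risen genes was the larger part. The 1252 became 342 when only the compared libraries were fitted, 1197 with the block and 533 to 2472 without 1 library. The number of genes called at day 35 changed as well in these settings. Without 1 library, the share of fallen genes that were higher ran from 43.6% to 49.6%. That of risen genes that were lower ran from 23.5% to 29.9%. Fits of only the compared libraries and fits without 1 library hold fewer libraries. Other causes were not tested. No named gene changed direction under any alternative run. Calls in initial leaves below a normalised count of 7.46, 19.3 and 6.45 in replicates 1, 2 and 3 are limited by depth.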
